A study of Homo sapiens with 10 samples.

Results

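The ATF and CEBP stress factors examined here are 10 genes of the integrated stress response: the transcription factors ATF4, ATF3, ATF5, DDIT3, CEBPB, CEBPD and CEBPG, the pseudokinase TRIB3, the phosphatase subunit PPP1R15A and the chromatin-associated cofactor NUPR1. They were chosen by symbol, with earlier results of these data known. A row of the expression table stood for a gene when the platform annotation gave it exactly 1 symbol, and each of the 10 genes had 1 such row, so that all 10 were measured among 14232 genes with a row of their own. The cells were SH-SY5Y, an established human neuroblastoma line with features of sympathetic neuroblasts. Cells treated with paraquat, a redox-active herbicide that gives rise to superoxide, were profiled on 5 arrays (paraquat 8, 12, 14, 18 and 20, after the numbers in the titles). Cells labelled ctrl were profiled on 5 (control 7, 11, 13, 17 and 19). Neither dose nor duration is stated in the labels. Both groups come from the same line, and separate cultures are not mentioned for the arrays of a group, so the spread behind each p-value may be technical only.

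In the integrated stress response, kinases that sense amino acid shortage, haem shortage, misfolded protein in the endoplasmic reticulum or double-stranded RNA phosphorylate the initiation factor eIF2 alpha. General translation falls, while the messenger RNA of ATF4 is translated better, so that ATF4 is controlled to a large part at the level of its protein. ATF4 pairs with other leucine zipper proteins, CEBPB and CEBPG among them, and activates DDIT3, ATF3, TRIB3 and genes of amino acid supply, and PPP1R15A then directs a phosphatase to eIF2 alpha and closes the loop. The arrays measured RNA and say nothing of the amount or phosphorylation of any protein.

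Expression values are RMA values on a log2 scale, and array medians lay between 6.78 and 6.93. Values of single arrays scattered about their group mean with an SD of 0.206 to 0.291 over all rows in paraquat arrays, and of 0.215 to 0.358 in control arrays, where control 11 was the widest. Of the sympathetic neuroblast markers that could be read, PHOX2A, ISL1 and GATA3 had means of 8.89, 8.74 and 9.21 in paraquat cells and of 9.97, 9.95 and 9.96 in control cells, and CHGA had 7.30 and 8.96. Of 5 measured neuroblast markers 4 fell, beside 14.2% of all genes, and the exception was TH, with a log2 change of -0.06 (limma adjusted p = 0.685). Of 4 measured leukocyte markers 2 rose, CD68 by 1.33 and CD14 by 0.64 on the log2 scale, beside 9.55% of all genes raised. In contrast, the defining leukocyte genes PTPRC and CD3E had means of 2.72 and 2.87 in paraquat cells and of 2.67 and 2.84 in control cells. The summed linear values of the leukocyte list ran from 564 to 667 in paraquat arrays and from 219 to 294 in control arrays. Most of this sum was CD68, with means of 9.07 in paraquat cells and 7.74 in control cells. Of 4 measured epithelial markers 0 rose and 0 fell. EPCAM, CDH1, KRT8 and KRT18 had means of 3.45, 3.62, 10.53 and 6.28 in paraquat cells and of 3.42, 3.72, 10.41 and 5.89 in control cells. The part of these markers in the changes below was not tested, and in a bulk sample a different share of cells cannot be told apart from a different amount of RNA per cell.

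After paraquat, 9 of the 10 genes rose and 0 fell at an adjusted p under 0.05 (limma, two-sided, Benjamini-Hochberg over all 22011 rows), whereas 9.55% of all genes rose and 14.2% fell (8.51% and 11.5% of all rows). All 10 had a higher paraquat mean at an unadjusted p under 0.05. The median log2 change of the 10 genes, paraquat minus control, was 1.42, beside a median of -0.0041 over all genes. Of the 10, 6 rose at least 2-fold, as did 2.0% of all genes, and 4 rose at least 4-fold, as did 0.492% of all genes. In 9 of the 10 every paraquat array lay above every control array, a pattern shown by 8.34% of all genes. ATF5 was the gene that did not pass and whose groups overlapped. Because earlier results of these data were known when the genes were chosen, the shares over all genes are a description and not a test.

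**Figure D1:**
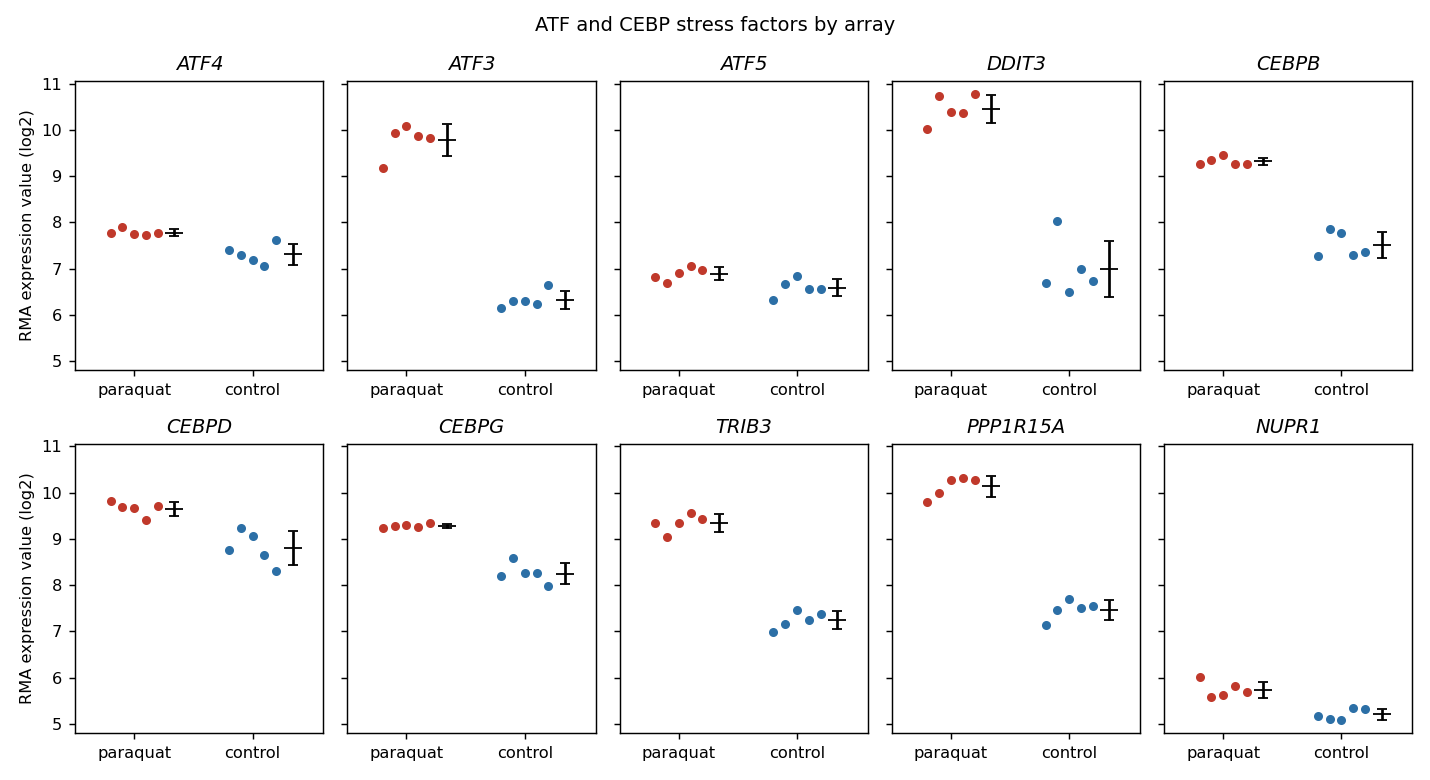
RMA expression values (log2, y axis) of the 10 genes on the 5 paraquat arrays (red, left, in the order 8, 12, 14, 18, 20) and the 5 control arrays (blue, right, in the order 7, 11, 13, 17, 19), with the mean and SD of each group in black. The groups are apart in every gene other than ATF5. Control 11 stands above the other controls in DDIT3 at 8.04, and CEBPG is tightly grouped after paraquat, between 9.24 and 9.35.

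Stretches next to transcription start sites are shown for the 4 genes that rose and held a match. Such genes are known to be read by leucine zipper dimers that bind related motifs. The 250 bases upstream of each RefSeq start (GRCh38.p14) were available for 8 of the 10 genes, the others being CEBPD and NUPR1. On both strands they were searched for TGATGNAA, the core of the CEBP-ATF response element, and for TGACGTCA, the cyclic AMP response element. The third motif was TGANTCA, a loose form of the AP-1 element that allows any middle base. No match overlapped another. The motifs were chosen with the sequences in view, and the array does not tell which start was in use. The stretches are given 5′ to 3′ on the strand of the gene, with the match in capitals.
PPP1R15A, chr19:48872171-48872420, plus strand: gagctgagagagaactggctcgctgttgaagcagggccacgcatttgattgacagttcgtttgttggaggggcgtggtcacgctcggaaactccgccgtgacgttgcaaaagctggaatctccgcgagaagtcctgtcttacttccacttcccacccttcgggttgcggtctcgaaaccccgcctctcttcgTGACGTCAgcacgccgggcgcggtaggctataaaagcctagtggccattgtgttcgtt
DDIT3, chr12:57520515-57520764, minus strand: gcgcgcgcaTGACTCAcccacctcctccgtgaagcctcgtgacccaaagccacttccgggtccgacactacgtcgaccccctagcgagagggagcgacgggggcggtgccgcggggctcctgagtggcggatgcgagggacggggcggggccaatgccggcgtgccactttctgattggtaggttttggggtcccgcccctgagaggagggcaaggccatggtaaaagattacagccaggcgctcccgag
CEBPG, chr19:33374060-33374089, plus strand: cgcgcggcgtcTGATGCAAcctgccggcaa
ATF3, chr1:212565205-212565234, plus strand: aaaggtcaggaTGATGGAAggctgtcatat

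The cyclic AMP response element of PPP1R15A begins 58 bases upstream of the start, and 2.03% of 27305 genes held such a match in any of their upstream windows. Those genes had 35116 windows and the 8 genes 17, and more windows per gene leave more room for a match. The AP-1 match of DDIT3, TGACTCA, begins 241 bases upstream, and ATF5, which did not pass the test, held 1 as well. The search with any middle base matched in 8.06% of all genes, so the share holding TGACTCA itself is at most that. The CEBP-ATF core begins 42 bases upstream of the second of the CEBPG starts and 191 bases upstream of the first of the ATF3 starts, and 3.89% of all genes held this core. The windows of the other CEBPG and ATF3 starts did not hold it. Of the 8 genes with windows, 2 held the CEBP-ATF core, 1 the cyclic AMP response element and 2 the AP-1 form. ATF4, CEBPB and TRIB3 also rose and held none of these motifs. A match describes these letters only, and a missing match says nothing about a factor.

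ATF4, the transcription factor at the centre of the response (transcript cluster 3945914), had values of 7.76, 7.90, 7.75, 7.73 and 7.77 on paraquat arrays 8, 12, 14, 18 and 20, against 7.41, 7.29, 7.18, 7.05 and 7.61 on control arrays 7, 11, 13, 17 and 19. All paraquat arrays lay above all controls, but the gap between the lowest paraquat array and control 19 was only 0.12. The mean was 7.78 ± 0.07 in paraquat cells and 7.31 ± 0.22 in control cells (SD, n = 5 arrays each), a rise of 1.39-fold (95% interval 1.18 to 1.63, limma adjusted p = 0.00935). Tested against a minimum change of 1.2-fold, ATF4 no longer passed (adjusted p = 0.278). By size of increase it ranked 1003 among 14232 genes.

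ATF3, a stress-induced relative of ATF4 that acts mostly as a repressor (transcript cluster 2379132), had 9.18, 9.94, 10.09, 9.86 and 9.83 on paraquat arrays 8, 12, 14, 18 and 20, against 6.14, 6.30, 6.30, 6.23 and 6.65 on control arrays 7, 11, 13, 17 and 19. Paraquat 8 was the lowest of its group, and it still exceeded the highest control by 2.53 on the log2 scale. The rise was 11.0-fold (95% interval 8.54 to 14.1, limma adjusted p = 2.81e-07), rank 13 of all genes. ATF3 has alternative starts, as the RefSeq windows show, and a single value per transcript cluster does not separate their transcripts.

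ATF5, a factor also translated under eIF2 alpha phosphorylation and tied to mitochondrial stress (transcript cluster 3839103), had 6.81, 6.69, 6.91, 7.05 and 6.98 on paraquat arrays 8, 12, 14, 18 and 20, against 6.32, 6.67, 6.85, 6.57 and 6.56 on control arrays 7, 11, 13, 17 and 19. Paraquat 8 and 12 lay below control 13, so the groups overlapped. The log2 change was 0.29 ± 0.11 (moderated SE, 95% interval 0.05 to 0.54, limma adjusted p = 0.0931) and did not pass over all rows. It passed without control 13 (0.36, adjusted p = 0.0466) and with array weights (0.32, adjusted p = 0.0402).

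The increases of these related factors were of different size. Within arrays, the change of ATF3 exceeded that of ATF4 by 2.99 on the log2 scale (95% interval 2.61 to 3.33) and that of ATF5 by 3.16 (2.72 to 3.58). Each gave an exact two-sided permutation p of 0.00794, the smallest that 5 against 5 arrays allow, and an adjusted p of 0.00992 over the 10 gene pairs compared. The changes of ATF4 and ATF5 differed by 0.18 (interval -0.24 to 0.60, exact permutation p = 0.341), so a difference in either direction of that order was not resolved. Probes differ in how far background compresses a change, and such differences between genes are on the scale of the array.

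DDIT3, also called CHOP, a CEBP-related factor that forms dimers unable to bind classical CEBP sites (transcript cluster 3458587), had 10.01, 10.73, 10.38, 10.37 and 10.77 on paraquat arrays 8, 12, 14, 18 and 20, against 6.70, 8.04, 6.50, 6.99 and 6.74 on control arrays 7, 11, 13, 17 and 19. Control 11 was 1.05 above the next control, yet 1.97 below the lowest paraquat array. The rise was 11.0-fold (95% interval 7.30 to 16.6, limma adjusted p = 8.47e-06), rank 12 of all genes. Its control SD of 0.61 was the widest of the 10 genes, and without control 11 the log2 change was 3.72 in place of 3.46. The change of DDIT3 exceeded that of ATF4 by 2.99 (95% interval 2.11 to 3.69, exact permutation p = 0.00794, adjusted p = 0.00992).

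CEBPB, a CEBP factor of inflammation and differentiation and a partner of ATF4 (transcript cluster 3888613), had 9.26, 9.34, 9.45, 9.27 and 9.27 on paraquat arrays 8, 12, 14, 18 and 20, against 7.27, 7.86, 7.76, 7.30 and 7.36 on control arrays 7, 11, 13, 17 and 19. The control arrays fell into a higher pair, 11 and 13, and a lower set, while the paraquat arrays lay close together. The rise was 3.50-fold (95% interval 2.88 to 4.25, limma adjusted p = 4.47e-06).

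CEBPG, a short CEBP protein that dimerises with ATF4 and other CEBPs (transcript cluster 3829313), had 9.24, 9.28, 9.30, 9.25 and 9.35 on paraquat arrays 8, 12, 14, 18 and 20, against 8.19, 8.58, 8.26, 8.26 and 7.98 on control arrays 7, 11, 13, 17 and 19. Its paraquat SD of 0.04 was the smallest of the 10 genes, against 0.22 in control cells. The rise was 2.04-fold (95% interval 1.74 to 2.40, limma adjusted p = 5.85e-05).

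CEBPD, a CEBP factor induced in acute-phase and inflammatory responses (transcript cluster 3134013), had 9.81, 9.69, 9.67, 9.40 and 9.71 on paraquat arrays 8, 12, 14, 18 and 20, against 8.75, 9.24, 9.07, 8.64 and 8.31 on control arrays 7, 11, 13, 17 and 19. The lowest paraquat array and the highest control, control 11, were 0.16 apart. The rise was 1.81-fold (95% interval 1.41 to 2.32, limma adjusted p = 0.00346), or 0.96 in place of 0.85 on the log2 scale without control 11.

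Among CEBPB, CEBPG and CEBPD, CEBPB changed most. Its change exceeded that of CEBPG by 0.78 (95% interval 0.56 to 1.00) and that of CEBPD by 0.95 (0.67 to 1.21), each at an exact permutation p of 0.00794 and an adjusted p of 0.00992. CEBPG and CEBPD differed by 0.18 (interval -0.06 to 0.44, exact permutation p = 0.175), which did not pass.

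**Figure D2:**
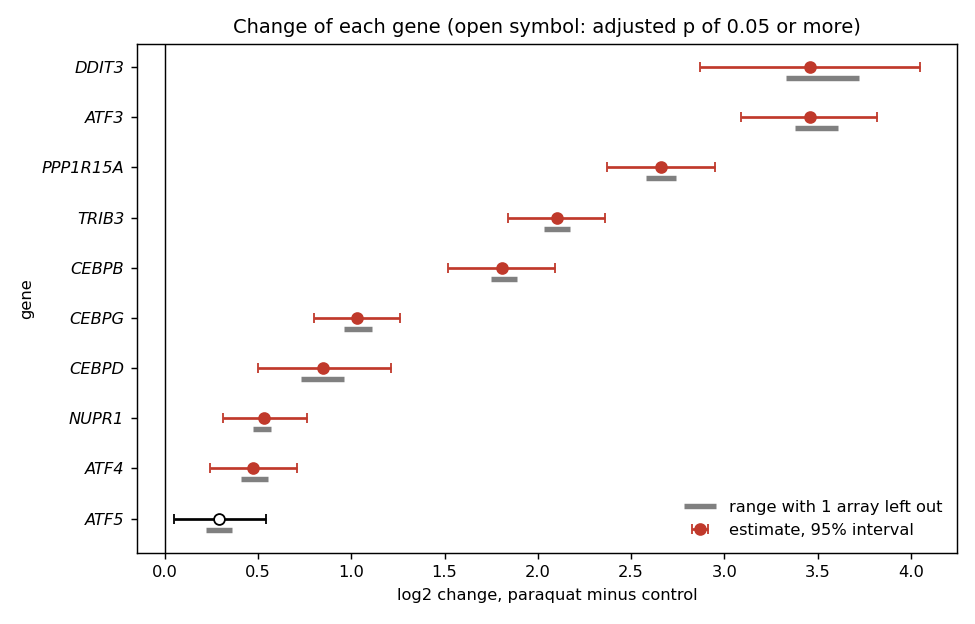
Log2 change, paraquat minus control (x axis), of each of the 10 genes, with its 95% interval from the limma model of 5 against 5 arrays. Grey bars give the range when any 1 array is left out, and the open symbol is ATF5, which did not pass. DDIT3 and ATF3 stand at 3.46, ATF4 at 0.47.

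PPP1R15A, or GADD34, the inducible subunit that brings a phosphatase to eIF2 alpha (transcript cluster 3838004), had 9.80, 9.98, 10.26, 10.32 and 10.28 on paraquat arrays 8, 12, 14, 18 and 20, against 7.13, 7.46, 7.69, 7.51 and 7.54 on control arrays 7, 11, 13, 17 and 19. The lowest paraquat array exceeded the highest control by 2.11 on the log2 scale. The rise was 6.33-fold (95% interval 5.17 to 7.75, limma adjusted p = 3.46e-07).

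Its paralogue PPP1R15B, the constitutive subunit of the same phosphatase, had 10.66, 10.40, 11.07, 11.08 and 11.01 on paraquat arrays 8, 12, 14, 18 and 20, against 9.89, 9.34, 9.94, 9.86 and 9.80 on control arrays 7, 11, 13, 17 and 19. The groups did not overlap, and PPP1R15B rose 2.11-fold (limma adjusted p = 0.000743). The change of PPP1R15A was larger by 1.58 (95% interval 1.24 to 1.94, exact permutation p = 0.00794, adjusted p = 0.00992).

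TRIB3, a pseudokinase induced by ATF4 and DDIT3 that in turn restrains them (transcript cluster 3873160), had 9.35, 9.04, 9.34, 9.55 and 9.42 on paraquat arrays 8, 12, 14, 18 and 20, against 6.98, 7.16, 7.46, 7.24 and 7.38 on control arrays 7, 11, 13, 17 and 19. The groups were 1.59 apart at their nearest arrays. The rise was 4.28-fold (95% interval 3.57 to 5.13, limma adjusted p = 9.11e-07).

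The other tribbles genes, which code for pseudokinases that guide CEBPA to degradation, rose less. TRIB1 had 8.66, 8.44, 8.84, 8.47 and 8.52 on paraquat arrays 8, 12, 14, 18 and 20, against 7.14, 7.17, 7.40, 7.07 and 6.99 on control arrays 7, 11, 13, 17 and 19, a rise of 2.70-fold (limma adjusted p = 6.6e-06). TRIB2 rose 1.27-fold (10.14 ± 0.16 in paraquat cells and 9.80 ± 0.12 in control cells, SD, limma adjusted p = 0.0316). The change of TRIB3 exceeded that of TRIB1 by 0.67 (95% interval 0.33 to 1.03) and that of TRIB2 by 1.75 (1.39 to 2.11), each at an exact permutation p of 0.00794 and an adjusted p of 0.00992.

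**Figure D3:**
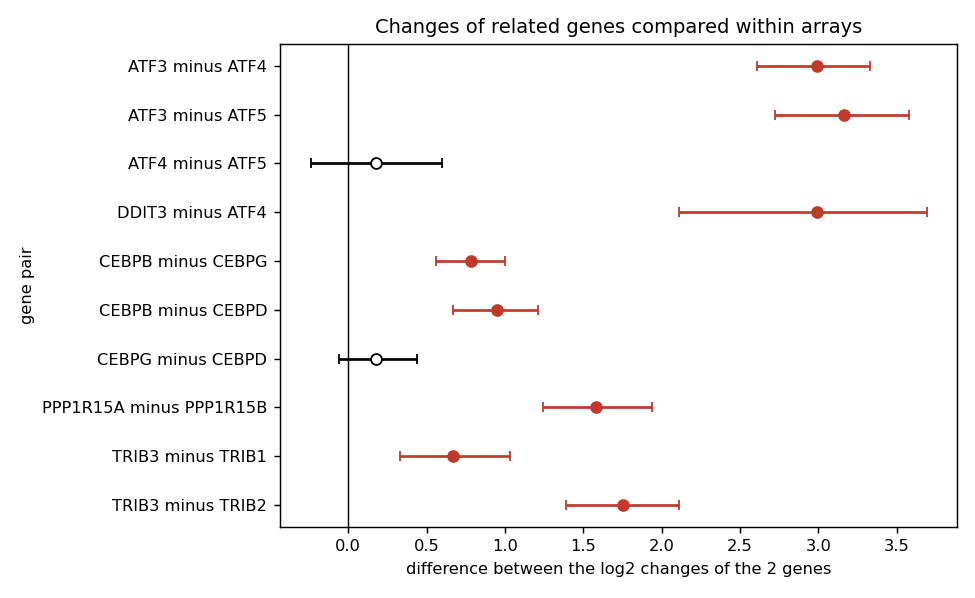
Differences between the log2 changes of 2 related genes (x axis), the first named minus the second, from values subtracted within each of the 10 arrays, with 95% intervals from inverting the exact permutation test. Open symbols are the pairs that did not pass, ATF4 with ATF5 and CEBPG with CEBPD. The other 8 pairs lie above 0.

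NUPR1, a small stress-induced cofactor also called p8 (transcript cluster 3654699), had 6.01, 5.58, 5.62, 5.81 and 5.69 on paraquat arrays 8, 12, 14, 18 and 20, against 5.17, 5.10, 5.09, 5.35 and 5.33 on control arrays 7, 11, 13, 17 and 19. The lowest paraquat array was 0.23 above the highest control. The rise was 1.45-fold (95% interval 1.24 to 1.69, limma adjusted p = 0.00368). Its mean over all arrays, 5.48, lay just under 5.518, the bound of the dimmest of 3 equal groups of rows, where RMA shrinks differences, and against a minimum change of 1.2-fold it no longer passed (adjusted p = 0.116).

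Deviations from the group mean were counted for the 10 genes, and the share of all genes deviating likewise on an array was not counted. A shift of a whole array therefore cannot be told apart from one of these genes. Paraquat 8 was below its group mean in 7 of the 10 genes (mean deviation -0.11) and yet the highest of its group in CEBPD and NUPR1. Control 7 was above its group mean in 1 gene only, ATF4, with a mean deviation of -0.16. Control 11 was above it in 5 genes, with a mean deviation of 0.20, and was the highest control in DDIT3, CEBPB, CEBPD and CEBPG. The SD was lower in paraquat than in control cells for 7 of the 10 genes, and for 49.5% of all genes. TRIB3 is among these 7, although its SD rounds to 0.19 in both groups. Without both control 11 and paraquat 12, the same 9 genes passed, with log2 changes of 3.65 for DDIT3, 3.41 for ATF3 and 0.44 for ATF4 (limma adjusted p = 2.44e-06, 8.78e-06 and 0.0338).

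Genes outside the set with the most similar profile over the 10 arrays, by the root mean square difference between profiles centred on their means, were MMP1, SERTAD1 and FOS for DDIT3, with differences of 0.30, 0.31 and 0.34 on the log2 scale. For ATF3 they were IER3, ERRFI1 and FOS, with differences of 0.26, 0.30 and 0.31. The profiles of DDIT3 and ATF3 themselves had root mean square deviations of 1.78 and 1.75. For ATF4, whose own deviation was 0.28, they were SPOCD1, STUM and SLC22A13, with 0.10, 0.12 and 0.12. The measure includes the shift between the groups, so it mainly finds genes with a log2 change of like size. MMP1, SERTAD1, FOS, IER3 and ERRFI1 changed by 3.48, 3.26, 3.64, 3.55 and 3.12, and SPOCD1, STUM and SLC22A13 by 0.49, 0.44 and 0.55. Whether these genes vary together from array to array within a group was not tested.

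Upstream of the factors stand the kinases and phosphatases of eIF2 alpha, eIF2 itself and its exchange factor eIF2B. Of 18 measured genes of this list 3 rose and 1 fell, beside 9.55% of all genes raised and 14.2% lowered. The median log2 change of the list was -0.01. The row annotated to EIF2S2 was dim, with means of 2.57 in paraquat cells and 1.96 in control cells, where EIF2S1 had 10.50 and 10.42. Whether that row reads EIF2S2 was not tested. Besides PPP1R15B, the rises were in DELE1, which relays mitochondrial stress to the haem-regulated kinase (0.53 ± 0.09, limma adjusted p = 0.00223), and in EIF2AK3, the endoplasmic reticulum kinase PERK (0.52 ± 0.12, adjusted p = 0.0117). PPP1CA, a catalytic phosphatase subunit, fell (-0.40 ± 0.10, adjusted p = 0.0131). The number that fell was 2 without control 19, paraquat 8 or paraquat 14. Among the other eIF2 alpha kinases, the haem-regulated EIF2AK1 had a log2 change of 0.05, the amino acid sensor EIF2AK4 of -0.17 and the RNA-activated EIF2AK2 of -0.49 (limma adjusted p = 0.851, 0.449 and 0.0711).

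Of 23 other measured genes of the ATF, CREB, CEBP and PAR leucine zipper families, 7 rose and 1 fell, at a median log2 change of 0.26, beside 9.55% of all genes raised and 14.2% lowered. CREB5, a relative of ATF2, rose most, with 9.40, 9.0, 9.63, 9.26 and 9.32 on paraquat arrays 8, 12, 14, 18 and 20, against 7.70, 7.39, 7.89, 7.71 and 7.55 on control arrays 7, 11, 13, 17 and 19 (3.19-fold, limma adjusted p = 8.1e-06). NFIL3, a repressor that antagonises the PAR factors, rose 2.54-fold, CREM, a cyclic AMP responsive factor, 1.95-fold, and XBP1, the factor activated by IRE1, 1.65-fold (limma adjusted p = 0.00223, 0.00973 and 0.000681). In CREM the values of control 11 (6.83) and paraquat 18 (6.65) overlapped. CREB3L4, a membrane-bound factor of the same family, fell by 0.87 on the log2 scale (limma adjusted p = 0.00294).

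Genes known to be induced through ATF4 or DDIT3 mostly rose: 24 of 31 measured genes passed upward and 2 downward, at a median log2 change of 0.88, beside the same 9.55% and 14.2% of all genes. The largest rises were in SLC7A11, the cystine importer (4.66 ± 0.12), CHAC1, which degrades glutathione (2.91 ± 0.12), STC2, a secreted glycoprotein of calcium and phosphate balance (2.58 ± 0.16), and SESN2, a leucine sensor (2.54 ± 0.12), with limma adjusted p = 3.35e-09, 1.82e-07, 1.68e-06 and 2.34e-07. The genes that fell were ALDH18A1 of proline synthesis (-0.71 ± 0.10, adjusted p = 0.000645) and CBS of cysteine synthesis (-0.31 ± 0.10, adjusted p = 0.0467). Without any 1 array other than control 11 or paraquat 8 the number that fell was 1. The list was put together from textbook targets with earlier results of these data known.

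Genes of the XBP1 and ATF6 arms of the unfolded protein response passed upward in 4 of 17 cases and downward in 1, at a median of 0.05. Of all genes, 9.55% rose and 14.2% fell. HERPUD1 (1.21) and EDEM1 (1.15), which help to dispose of misfolded protein, ERN1, which is IRE1 itself (1.10), and the cochaperone DNAJB9 (0.85) rose, and SDF2L1, a partner of lumenal chaperones, fell (-0.73, limma adjusted p = 0.0238). The number that fell was 3 without paraquat 12 and 0 without paraquat 8, 14 or 18. Among 11 mitochondrial chaperones and proteases, 1 rose and 1 fell, at a median of -0.03, beside the same shares of all genes. DNAJA3, a mitochondrial cochaperone, rose by 0.38 (limma adjusted p = 0.0467), and HTRA2, a protease of the intermembrane space, fell (-0.47, adjusted p = 0.0195). The number that rose was 0 without any 1 array other than control 11 or paraquat 8, and the number that fell was 2 without control 7 and 0 without paraquat 20.

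**Figure D4:**
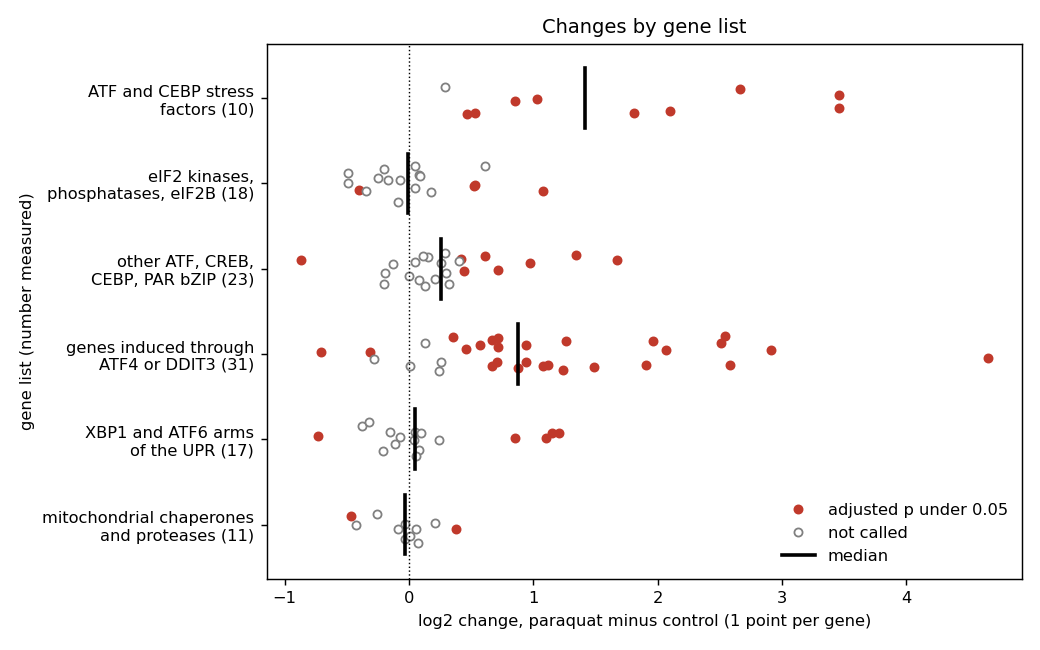
Log2 change, paraquat minus control (x axis), of the 10 ATF and CEBP stress factors and of 5 related gene lists, with 1 point per measured gene. Filled points passed at an adjusted p under 0.05 and black bars are list medians, which run from 1.42 for the stress factors to -0.03 for mitochondrial chaperones and proteases.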

How the data were processed

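Total RNA of SH-SY5Y cells was labelled after ribosomal depletion and put on Affymetrix exon arrays, per the labels' protocols. The deposited values are RMA log2 expression values, per the submitters' processing notes, with no software version, filter or genome build stated. Their range fits a log2 scale. The table has 22011 rows, of which 14432 carry 1 gene symbol. RMA shrinks changes of dim rows, and detection calls were not used. The number of arrays limits the precision, with a median standard error of 0.13 on the log2 scale.

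The deposited values were fitted without scaling or filter in limma 3.58.1 (R 4.3.3), with the group as the only term, 8 residual and 3.055 prior degrees of freedom. P-values were adjusted over all rows, and 95% intervals come from this model. The script was tested on simulated data. Differences between genes were tested by permuting arrays (Python 3.11.15). All 10 genes, their paralogues (NUPR2 was not analysed here) and at most 4 passing genes per list and direction, by size of change, were named. The other eIF2 alpha kinases were added after their values were seen. Members and lists were chosen with earlier results of these data known. Motif windows come from RefSeq.

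Alternatives were median centring, quantile normalization, array weights, another variance prior, a filter on dim rows, stricter thresholds, leaving out arrays and, added after seeing the data, a block of neighbouring title numbers.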

Additional observations from a re-analysis of the deposited data

Results flagged for a closer look

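An array stood apart from the other 4 of its group in 2 of the 20 groups of 5 values, where its gap to the nearest array, divided by the range of the group, exceeded 0.71. Chance gives about 1 in 20 groups. ATF3 had 9.18 on paraquat 8, below 9.83 to 10.09 on the other paraquat arrays, and ATF4 had 7.90 on paraquat 12, above 7.73 to 7.77. Below that bound, ATF3 on control 19 had a ratio of 0.693 and DDIT3 on control 11 one of 0.677.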

How the results depend on the processing

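The 9 genes that rose kept their direction under all alternatives run, and their calls ended only against a minimum fold of 1.2, for ATF4 (0.47, adjusted p = 0.278) and NUPR1 (0.53, adjusted p = 0.116). NUPR1 could not be tested without the dimmest of 3 equal groups of rows. ATF5 passed with array weights (0.32, adjusted p = 0.0402) and without control 13, and its log2 change was 0.22 to 0.36 with 1 array left out. Over all alternatives run, log2 changes were 3.33 to 3.72 for DDIT3, 3.38 to 3.61 for ATF3 and 0.41 to 0.55 for ATF4. All 10 differences between genes kept their direction and call. The groups share no replicate number, and the labels do not pair arrays. With neighbouring title numbers (7 and 8, and so on) as a replicate block, an alternative chosen after seeing the data, the same 9 genes rose, with adjusted p for ATF4 of 0.0134 and for ATF5 of 0.0858. In this block 1 gene induced through ATF4 or DDIT3, 3 genes of the XBP1 and ATF6 arms and 2 mitochondrial genes fell, and over all rows 2226 rose and 3153 fell. Deviations from the group means correlated over all rows at 0.0912 to 0.461 in the 5 neighbouring pairs and at -0.358 to 0.317 in other pairs of a control and a paraquat array, and for 3 of 5 controls the neighbour was the paraquat array with the highest correlation. This is a hint from the data, not the design. The differences between genes were not run in this block.

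Counts moved as follows, and the cause was not tested beyond the stricter thresholds. Over all rows, 735 rose and 913 fell against a minimum fold of 1.2, and 1068 rose and 1424 fell at an adjusted p under 0.01. With array weights 3 eIF2 pathway genes fell, 11 other leucine zipper genes rose, 2 genes of the XBP1 and ATF6 arms fell, and 2 mitochondrial genes rose and 2 fell. Against a minimum fold of 1.2, 1 eIF2 pathway gene rose and 0 fell, 3 other leucine zipper genes rose, 1 gene induced through ATF4 or DDIT3 fell, 0 genes of the XBP1 and ATF6 arms fell, and 0 mitochondrial genes rose and 0 fell. At an adjusted p under 0.01, 0 eIF2 pathway genes fell, 1 induced gene fell, 0 genes of the XBP1 and ATF6 arms fell, and 0 mitochondrial genes rose and 0 fell. The number of induced genes that fell was 1 after median centring and after quantile normalization. In the XBP1 and ATF6 arms 2 fell with the other variance prior, 3 without control 11 and paraquat 12, and 2 without the dimmest rows, where 3 eIF2 pathway genes fell. With 1 array left out, 1 to 2 eIF2 pathway genes fell, 1 to 2 induced genes fell, 0 to 3 genes of the XBP1 and ATF6 arms fell, and 0 to 1 mitochondrial genes rose and 0 to 2 fell.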
